A study of Mus musculus with 10 samples.

Results

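The Hippo pathway was examined in sorted mouse mammary epithelial cells through 10 genes. They are the kinases Lats1 and Lats2, the transcriptional co-activators Yap1 and Wwtr1 (the gene of TAZ), the DNA-binding factors Tead1, Tead2, Tead3 and Tead4, and the target genes Ccn1 (earlier Cyr61) and Ccn2 (earlier Ctgf). They were chosen by name, with earlier results of these data known. Each was read from its brightest probe set that carries a single gene symbol. All 10 passed the filter on dim probe sets and stood among 15815 genes tested. Values are log2(intensity + 16), so a difference of 1 is a doubling on that scale, and differences of dim genes are understated. Levels were compared between groups for 1 gene at a time and never between genes, because probe sets differ in brightness for the same amount of RNA.

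The donors of the cells were virgin females of 8 to 12 weeks, either Pygo2 SSKO mice or their control littermates, housed together. The cells sorted were negative for CD31, CD45 and TER119, which mark endothelial, blood and erythroid cells. There were 4 control arrays and 3 SSKO arrays of the CD29-high, CD24-positive population, which holds stem and basal cells and is called basal here. A further 3 control arrays held CD29-low, CD24-positive, CD61-negative mature luminal cells. What SSKO stands for, which alleles the controls carried and what drove the deletion are not spelled out in the labels. Luminal cells of SSKO mice were not analysed here. The arrays are labelled as biological replicates, and how many animals stand behind each is not stated.

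In the Hippo pathway, LATS kinases phosphorylate YAP and TAZ and thereby keep them out of the nucleus. When LATS activity is low, YAP and TAZ enter the nucleus, bind TEAD factors and switch on genes such as Ccn1, Ccn2 and Lats2 itself, the last of which feeds back on the pathway. In the mammary gland the pathway is known for its part in the choice between basal and luminal fates and in stem cell behaviour. Much of its control acts on the phosphorylation and location of YAP and TAZ proteins, which mRNA arrays do not measure.

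TEAD factors recognise the letters CATTCC, or GGAATG on the opposite strand. The 250 bases before each transcription start were searched for them on both strands, with RefSeq sequences of mouse build GRCm38.p6. RefSeq entries were matched by symbol for 7 of the 10 genes (11 entries); Tead1, Tead4 and Ccn2 had none in the table used. The letters were found in 6 of the 11 entries, against 12.6% of 32851 mouse promoter windows of this length. The 6 entries include both of the overlapping entries of Wwtr1, which share 1 match. By gene, 4 of the 7 had the letters in an entry (Yap1, Wwtr1, Tead3 and Ccn1). Genes had 1 to 3 entries each, so the share per window is not a reference for that count. The AP-1 letters TGANTCA, searched on both strands, were in 0 of the 11 entries, against 6.75% of all windows, so no match of one motif overlapped the other. A match is a description of the letters and says nothing of binding in these cells. The windows below are those of a target gene that was not called in any comparison (Ccn1), of both co-activators, which were lower in luminal cells, and of Tead2, the member that was higher in luminal cells and whose window had no match. Each is written 5′ to 3′ along the gene's strand, with the TEAD letters in capitals. The windows lie at chr3:145649986-145650235 (Ccn1, minus strand), chr9:8004597-8004846 (Yap1, minus strand), chr3:57575911-57576160 (the first of 2 entries of Wwtr1, minus strand) and chr7:45215542-45215791 (Tead2, plus strand).
Ccn1: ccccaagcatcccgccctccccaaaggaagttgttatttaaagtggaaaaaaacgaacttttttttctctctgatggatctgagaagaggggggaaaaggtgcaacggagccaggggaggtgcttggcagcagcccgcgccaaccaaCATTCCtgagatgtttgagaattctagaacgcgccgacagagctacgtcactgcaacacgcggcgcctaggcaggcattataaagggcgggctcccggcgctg
Yap1: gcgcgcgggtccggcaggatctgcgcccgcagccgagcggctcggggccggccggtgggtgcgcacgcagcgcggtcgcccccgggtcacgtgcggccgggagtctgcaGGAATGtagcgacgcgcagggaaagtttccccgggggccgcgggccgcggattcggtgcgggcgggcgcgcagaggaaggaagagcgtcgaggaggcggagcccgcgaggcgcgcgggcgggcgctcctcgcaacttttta
Wwtr1: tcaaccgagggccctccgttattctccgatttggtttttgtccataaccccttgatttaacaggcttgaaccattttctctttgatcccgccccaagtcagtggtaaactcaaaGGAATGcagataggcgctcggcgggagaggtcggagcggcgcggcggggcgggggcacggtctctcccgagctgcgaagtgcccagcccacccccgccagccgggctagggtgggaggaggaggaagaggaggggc
Tead2: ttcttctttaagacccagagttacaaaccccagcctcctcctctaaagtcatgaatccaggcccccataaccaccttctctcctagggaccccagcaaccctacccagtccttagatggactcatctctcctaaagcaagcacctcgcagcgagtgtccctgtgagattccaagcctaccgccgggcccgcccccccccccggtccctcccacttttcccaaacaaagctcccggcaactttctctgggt
Counted from the transcription start, the first capital base lay at -103 in Ccn1, at -141 in Yap1 and at -136 in Wwtr1. The other entry of Wwtr1 overlapped this one and held the same match. Of the 3 entries of Tead3, the first held the letters once (-182), the second held them at 2 places, and the third did not hold them. Lats1 (1 entry) and Lats2 (2 entries) had no match.

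The array columns were similar in overall brightness, with medians of 205 to 228 on the linear scale. Pygo2 fell from 8.60 ± 0.47 (SD, n = 4) in control to 6.26 ± 0.63 (SD, n = 3) in SSKO basal arrays (limma adjusted p = 0.0441), below the level of 6.74 at which probe sets were dropped as dim. That call ended in 12 of 22 alternative fits, with differences of -2.76 to -1.79 and adjusted p from 0.0243 to 0.476, and whether the probe set lies in the deleted part was not determined here. The labelled populations carried their defining markers. The summed intensity of 8 basal markers (such as Krt14 and Acta2) was 53913 to 60153 over the 7 basal arrays and 1764 to 11307 in luminal arrays, and that of 7 measured luminal markers (such as Krt8 and Krt18) was 12582 to 16780 in control basal, 19301 to 22089 in SSKO basal and 88431 to 90805 in luminal arrays. Luminal array 3 stood apart, with a basal marker sum of 11307 against 2412 and 1764 in luminal arrays 1 and 2. The endothelial sum over 12 markers, such as Cdh5 and Eng, also varied between arrays. It was 13810 in control basal array 1, 27472 in SSKO basal array 1 and 15368 in SSKO basal array 3. It ran from 4493 to 6532 over the remaining basal arrays and from 4186 to 5454 over luminal arrays.

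The comparison of control luminal with control basal cells asked how the pathway's genes differ between the 2 epithelial compartments. Luminal cells had lower mRNA of both co-activators, of Tead1, of Lats2 and of Ccn2, and higher mRNA of Tead2. Ccn2 differed most, 11.5-fold lower in luminal cells, and Tead2 was 6.98-fold higher. In this comparison 6 of the 10 genes were called (1 higher, 5 lower), the same 6 had groups that did not overlap, and 7 had an unadjusted p under 0.05. Over all genes tested 44.3% were called (24.6% higher and 19.7% lower), 46.3% did not overlap and 50.1% had an unadjusted p under 0.05, so 6 calls among 10 genes are not far from the background. The median log2 difference was -0.72 over the 10 genes and 0.07 over all genes tested. In bulk samples, fewer cells of a type and less RNA per cell cannot be told apart.

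Lats1 encodes a kinase that phosphorylates YAP and TAZ. Its level was 11.58, 11.49, 11.42 and 11.69 in control basal arrays 1 to 4, 11.43, 11.62 and 11.58 in SSKO basal arrays 1 to 3, and 11.14, 11.21 and 11.43 in luminal arrays 1 to 3. Luminal arrays 1 and 2 lay below every basal array, while luminal array 3 reached the lower end of both basal groups. The luminal difference of -0.28 (SE 0.12, 95% interval -0.55 to -0.02, limma adjusted p = 0.0810) was not called. It was called without luminal array 3 (-0.37, adjusted p = 0.0413), after quantile normalization (-0.34, 0.0262) and with array weights (-0.35, 0.0261), and the adjusted p over all 23 alternatives ran from 0.0261 to 0.258.

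Lats2 encodes the second LATS kinase and is itself a known YAP/TAZ target. Its level was 9.62, 10.11, 9.87 and 9.99 in control basal, 9.78, 10.11 and 10.11 in SSKO basal, and 8.75, 8.58 and 9.25 in luminal arrays. Every luminal array lay below every basal array, and the 2 basal groups overlapped. The luminal difference was -1.03 (SE 0.18, limma adjusted p = 0.000705), a level 2.05-fold lower. The per-array difference between both genes (Lats2 minus Lats1) shifted by -0.75 between luminal and control basal arrays, with an exact two-sided permutation p of 0.0286, the smallest that 35 splits allow, and 0.0686 after adjustment over 12 such tests.

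Yap1 encodes YAP. Its level was 11.73, 11.98, 11.78 and 11.94 in control basal, 11.77, 12.00 and 12.02 in SSKO basal, and 10.62, 10.61 and 10.95 in luminal arrays. The 7 basal arrays lay within a narrow band, and all 3 luminal arrays lay below it. The luminal difference was -1.13 (SE 0.13, limma adjusted p = 3.66e-05), a level 2.19-fold lower. Luminal array 3, which had the highest basal marker sum of the luminal arrays, was the highest of them for Yap1, Wwtr1, Tead1 and Lats2. Without that array the differences were -1.24 for Yap1, -1.39 for Wwtr1, -2.08 for Tead1 and -1.23 for Lats2. The part of basal cells in that array was not tested.

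Wwtr1 encodes TAZ, the paralog of YAP. Its level was 11.11, 11.39, 11.49 and 11.67 in control basal, 11.11, 11.45 and 11.59 in SSKO basal, and 10.03, 10.02 and 10.51 in luminal arrays. Luminal arrays again lay below all basal arrays, and the lowest basal values were those of control array 1 and SSKO array 1. The luminal difference was -1.23 (SE 0.18, limma adjusted p = 0.000206), 2.35-fold. No unequal change of the paralogs was detected: Wwtr1 minus Yap1 shifted by -0.10 (exact permutation p = 0.371, adjusted 0.637), and shifts of -0.16 to -0.04 were found when 1 array was left out.

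The TEAD family, which tethers YAP and TAZ to DNA, was split between the compartments. Tead1 was 11.89, 11.98, 12.09 and 11.87 in control basal, 11.78, 12.02 and 11.92 in SSKO basal, and 9.87, 9.88 and 10.24 in luminal arrays. All luminal arrays lay well below the basal band, with a difference of -1.96 (SE 0.13, limma adjusted p = 4.41e-07), or 3.89-fold lower. Tead1 is the one member with a further probe set, and that one gave a luminal difference of -1.81 and an SSKO difference of -0.11.

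Tead2 ran the other way. It was 8.96, 8.89, 9.35 and 8.62 in control basal, 9.18, 9.26 and 8.84 in SSKO basal, and 11.93, 11.87 and 11.48 in luminal arrays. Every luminal array lay above every basal array, and luminal array 3, the one with the highest basal marker sum, was the lowest of the luminal arrays. The luminal difference was 2.80 (SE 0.19, limma adjusted p = 4.63e-07). Relative to Tead1 on the same arrays, Tead2 shifted by 4.76, with an exact permutation p of 0.0286 (the smallest possible) and 0.0686 after adjustment.

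Tead3 was 9.82, 10.55, 10.55 and 10.30 in control basal, 10.13, 10.51 and 10.39 in SSKO basal, and 9.87, 9.67 and 10.14 in luminal arrays. Control basal array 1 and SSKO basal array 1 lay within the luminal range, so the groups overlapped. The luminal difference of -0.41 (SE 0.19, limma adjusted p = 0.113) was not called, but it was called without control basal array 1 (-0.57, adjusted p = 0.0144), with the endothelial marker level as a covariate (-0.56, 0.0240), without the 3 basal arrays brightest for endothelial markers (-0.57, 0.0239) and with array weights (-0.49, 0.0370). The adjusted p over all alternatives ran from 0.0144 to 0.342.

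Tead4 was 7.65, 7.21, 7.51 and 8.76 in control basal, 7.99, 7.35 and 8.28 in SSKO basal, and 8.33, 8.19 and 8.79 in luminal arrays. Control basal array 4 and SSKO basal array 3 were the highest basal arrays and lay within the luminal range, and the other 5 basal arrays lay below it. The luminal difference of 0.66 (SE 0.34, limma adjusted p = 0.150) was not called with all arrays. Without control basal array 4 the difference was 0.98 (adjusted p = 0.00858) and Tead4 was called, and the adjusted p over all alternatives ran from 0.00146 to 0.360. Relative to Tead1, Tead3 shifted by 1.55 and Tead4 by 2.61 in luminal arrays, each with an exact permutation p of 0.0286, the smallest possible, and 0.0686 after adjustment.

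**Figure D1:**
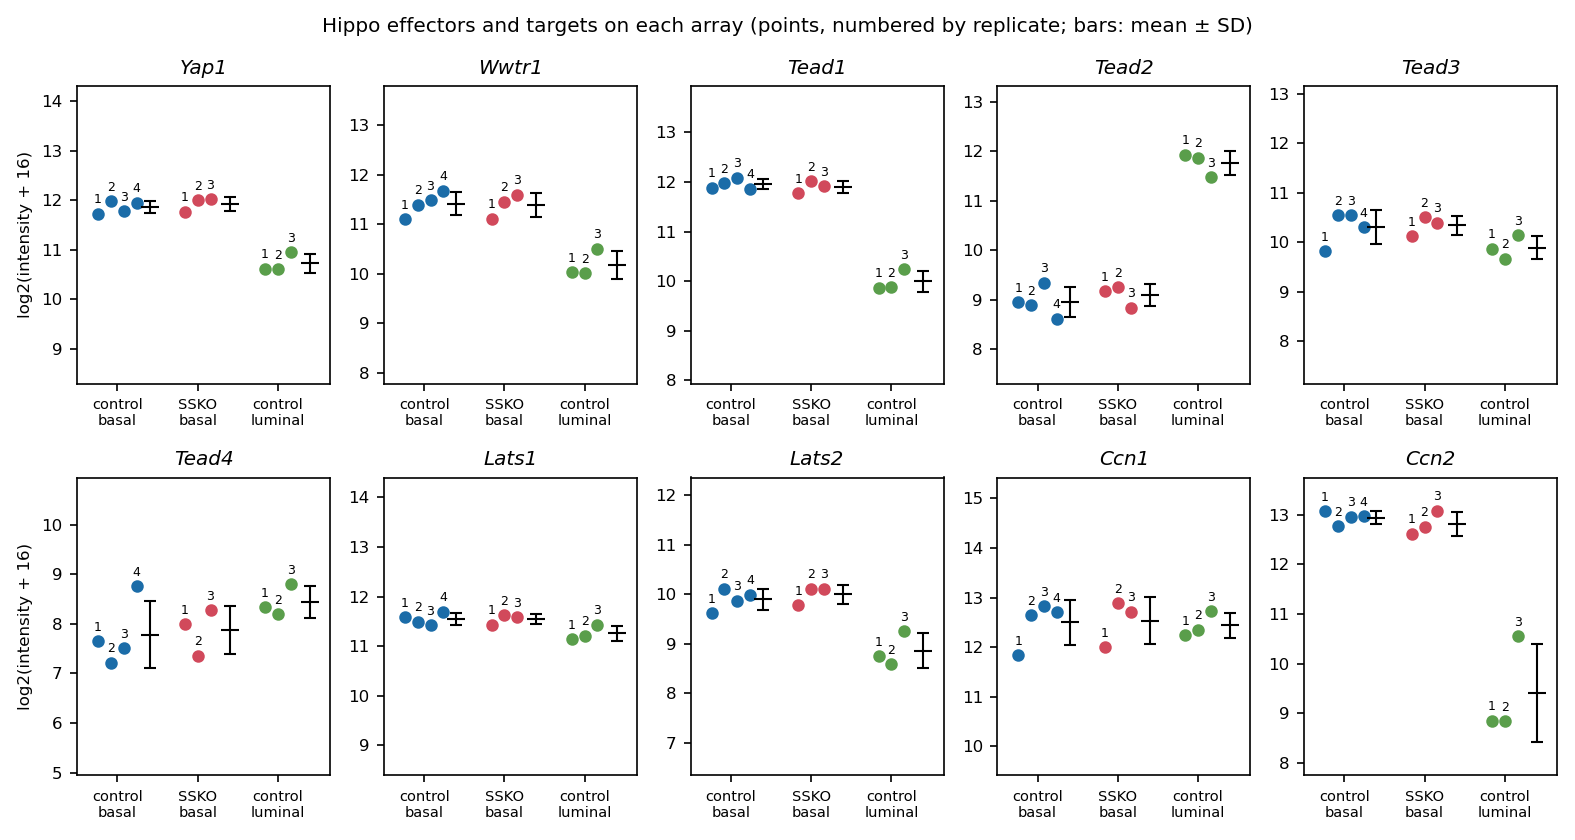
Level of each of the 10 genes, log2(intensity + 16), on every array, with 1 panel per gene and the same span of the vertical axis in each; points are arrays numbered by replicate, and bars give the mean and SD of each group (n = 4, 3 and 3). The 3 luminal arrays lie below all basal arrays for Yap1, Wwtr1, Tead1, Lats2 and Ccn2 and above them for Tead2, while the 2 basal groups overlap in all 10 panels.

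Ccn2 and Ccn1 encode matricellular proteins and are the most used readouts of YAP/TAZ activity. Ccn2 was 13.07, 12.77, 12.96 and 12.97 in control basal, 12.62, 12.76 and 13.08 in SSKO basal, and 8.85, 8.84 and 10.56 in luminal arrays. All luminal arrays lay below the basal arrays by over 2 log2 units, and luminal array 3 lay above the other luminal arrays. The luminal difference was -3.53 (SE 0.35, 95% interval -4.30 to -2.76, limma adjusted p = 1.02e-05), and it was -4.10 without luminal array 3. The order of the luminal arrays for Ccn2 (array 3 highest) was that of the basal marker sum, whose part in the result was not tested. All 8 fibroblast markers were lower in luminal than in control basal arrays as well, with a summed intensity of 1515 to 6855 against 14092 to 28290 and none at 0. Among luminal arrays their sum was lowest (1515) in array 3, where Ccn2 was highest, but its fall over these arrays was mostly that of Dcn. Dcn was 12.46, 11.43 and 9.03 in luminal arrays 1 to 3. Col3a1 was 9.13, 9.09 and 8.82 there, and Pdgfra was highest in array 3 (6.45, 6.43 and 6.91). The order of the sum is therefore not that of every fibroblast marker, and the part of fibroblasts in the Ccn2 difference was not tested.

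Ccn1 did not follow Ccn2. It was 11.84, 12.65, 12.82 and 12.71 in control basal, 11.99, 12.89 and 12.71 in SSKO basal, and 12.25, 12.35 and 12.72 in luminal arrays. The lowest arrays were control basal array 1 and SSKO basal array 1, both below every luminal array, and the remaining 5 basal arrays and the 3 luminal arrays overlapped. The luminal difference was -0.06 (SE 0.27, 95% interval -0.65 to 0.53, limma adjusted p = 0.880), so a change of the size seen for Ccn2 lay far outside the interval. Ccn2 minus Ccn1 shifted by -3.47 between luminal and control basal arrays (exact permutation p = 0.0286, the smallest possible, and 0.0686 after adjustment). When the 3 basal arrays brightest for endothelial markers were left out, the Ccn1 difference was -0.29 (limma adjusted p = 0.208), and with the endothelial level as a covariate it was -0.33 (0.196).

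The other genes of the pathway were taken from 6 lists, of which 54 of 57 listed genes were tested. In luminal against control basal cells 11 were higher and 23 lower, or 63% called against 44.3% of all genes tested, with a median of -0.30 against 0.07. The lists were chosen with earlier results of these data known, so the larger share is a description and not a test of enrichment. All counts of calls here use limma with adjustment over all genes tested. At the membrane, the cadherins Fat4 and Dchs1, which form a ligand and receptor pair upstream of the pathway, fell (differences of -3.58 and -4.07), as did the phosphatase Ptpn14, which binds YAP (-3.21). The polarity gene Crb3 rose by 2.43, Wwc1 (KIBRA) by 0.93 and the scaffold Dlg5 by 0.57. In that list of 13, 3 rose, 7 fell and 3 were not called, the last including Nf2 (merlin) at 0.03 and Fat1 at -0.05. In the same comparison all 8 fibroblast markers were called lower, with a median of -3.29. Of 7 pericyte markers, 5 were called lower and 1 higher, with a median of -0.99. The part of these cell types in the differences of the 54 genes was not tested.

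Core kinases and scaffolds were divided in direction. Of 10 tested, 3 rose, namely Sav1, the scaffold of the MST kinases, by 0.63 and the LATS-related kinases Stk38 by 0.52 and Stk38l by 0.50. Another 3 fell, namely the kinases Map4k4 (-0.85) and Taok2 (-0.61) and the LATS co-activator Mob1b (-0.40). The call was lost for Stk38 without luminal array 2 (0.46, limma adjusted p = 0.0530) and for Stk38l without luminal array 3 (0.43, 0.0635). For Mob1b it was lost without luminal array 1 (-0.33, limma adjusted p = 0.0931) or control basal array 4 (-0.35, 0.0548). It was also lost for Mob1b with the replicate block (-0.35, limma adjusted p = 0.0728) and without the 3 endothelial-bright basal arrays (-0.35). Of the MST kinases, Stk4 differed by 0.27 (not called) and Stk3 was not measured by a probe set of its own. Of 6 regulators of the kinases, Rassf6, of the RASSF family that binds MST kinases, rose by 4.64 (SE 0.14, limma adjusted p = 5.39e-09), while the LIM proteins Wtip (-2.59) and Ajuba (-2.15), which bind LATS, fell, and 3 were not called. Among the 4 vestigial-like genes, whose products bind TEAD in place of YAP, Vgll3 alone was called, with a difference of -4.79 (SE 0.33, limma adjusted p = 6.66e-07), and Vgll1 (-0.25), Vgll2 (-0.02) and Vgll4 (-0.17) were not.

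The YAP/TAZ target list, a set of genes widely used as a readout of the pathway, did not move as 1 block. Of 17 tested besides the members, 8 fell, 3 rose and 6 were not called, with a median of -0.34. The largest falls were those of Igfbp3, an IGF-binding protein (-5.66), the receptor tyrosine kinase Axl (-4.12) and Fjx1 (-3.49). The genes that rose were Dock5 (2.23), F3, which encodes tissue factor (1.80), and the stress gene Gadd45a (1.47). Ankrd1 and Amotl2, both common reporters of YAP activity, had differences of -0.41 and -0.16 and were not called, named here after their values were seen. Axl and Igfbp3 are also expressed by fibroblasts, whose markers were lower in luminal arrays as given above. In luminal arrays 1 to 3 the fibroblast sum was 6855, 3842 and 1515, a fall that was mostly that of Dcn. The basal marker sum was 2412, 1764 and 11307 in the same arrays. Axl was 7.75, 7.62 and 9.37 there, and Igfbp3 was 7.52, 6.34 and 7.73. The parts of fibroblasts and of basal cells among the luminal arrays in the values of both genes were not tested. Of the remaining CCN genes, Ccn4 (-2.70) and Ccn3 (-0.41) fell and Ccn5 (0.85) rose, while Ccn6 was not called. The Ccn3 call was lost without control basal array 1 (limma adjusted p = 0.0791) or 4 (0.0662) and without luminal array 1 (0.111) or 2 (0.102). It was also lost after quantile normalization (0.0887) or centring (0.0641), with the endothelial covariate (0.0788) or the replicate block (0.0603), and without the 3 endothelial-bright arrays (0.0860). Luminal means of Vgll3 (5.33), Dchs1 (6.17), Fjx1 (6.28) and Ccn4 (6.11) lay under the dim level of 6.74, so the full size of their falls is not known. Without luminal array 3, 10 of the 17 targets and 11 of the 13 membrane genes were called, and without the 3 endothelial-bright arrays 10 and 10.

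**Figure D2:**
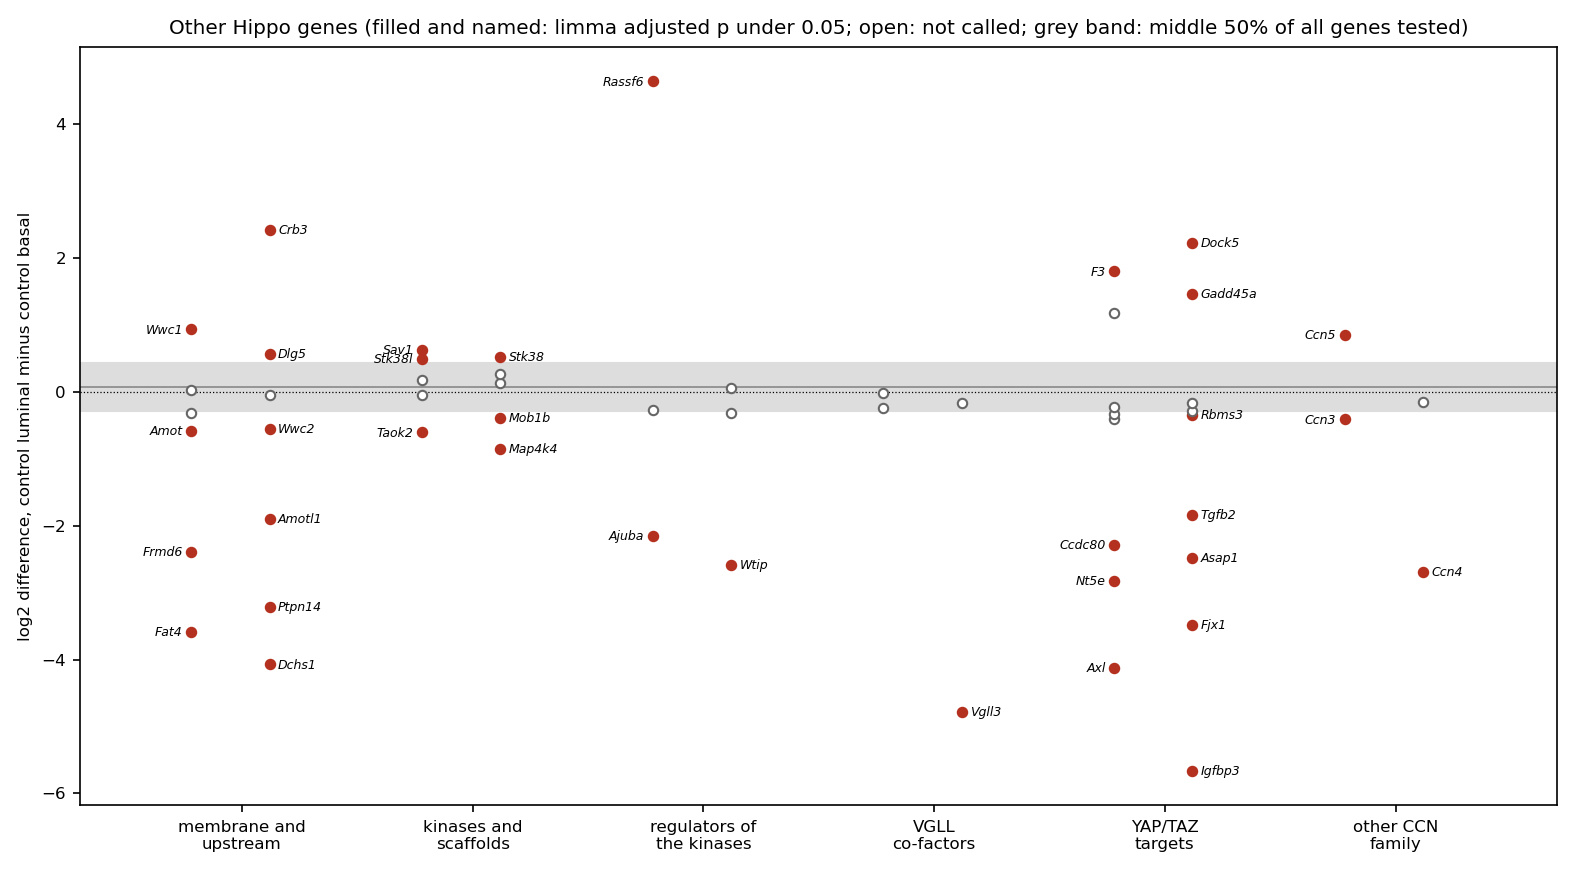
Log2 difference of control luminal minus control basal cells for the 54 other Hippo genes tested, by list; filled points with names were called by limma and open points were not, and the grey band holds the middle 50% of all genes tested. Calls lie on both sides of 0 in 5 of the 6 lists, from -5.66 for Igfbp3 to 4.64 for Rassf6.

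Whether Hippo genes changed along with the loss of Pygo2 was asked by setting SSKO basal arrays against control basal arrays. No change was detected in any of the 10 genes. limma called 0 of them, 0 had an unadjusted p under 0.05 and 0 had groups that did not overlap, and the smallest unadjusted p was 0.477. Over all genes tested, 0.0379% were called (0.0316% or 5 genes higher and 0.00632% or 1 gene lower; or 3 higher and 0 lower after quantile normalization), 3.03% had an unadjusted p under 0.05 and 4.46% did not overlap, so a count of 0 among 10 genes is near the background.

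The differences were small beside the spread. They ran from -0.12 for Ccn2 to 0.14 for Tead2, with a median of 0.03 over the 10 genes and 0.01 over all genes tested. The 95% intervals give the range of differences that these arrays allow. For Lats1 the difference was -3e-04 (interval -0.27 to 0.27), for Yap1 0.07 (-0.22 to 0.36), for Tead1 -0.05 (-0.34 to 0.23) and for Wwtr1 -0.03 (-0.43 to 0.37). The intervals were wider for Lats2 (0.11, -0.29 to 0.50), Tead2 (0.14, -0.27 to 0.55), Tead3 (0.04, -0.39 to 0.46), Ccn1 (0.03, -0.56 to 0.62), Tead4 (0.09, -0.66 to 0.84) and Ccn2 (-0.12, -0.89 to 0.65). A missed threshold does not show that the groups were alike.

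The sum of the luminal markers differed between the same basal arrays. Their summed intensity was 12582 to 16780 in control and 19301 to 22089 in SSKO arrays, with no overlap and no marker at 0. Of the 7 measured, limma called Cited1 alone (1.56, adjusted p = 0.0103), which was not followed through the alternative fits. Krt19 (1.44, limma adjusted p = 0.0934) and Foxa1 (1.11, 0.105) were not called but did not overlap between the groups, as was so for 4.46% of all genes tested. Krt8 differed by 0.10, Krt18 by 0.39 and Pgr by 0.26, while Esr1 went the other way (-0.34), and none of these was called. The median over the 7 was 0.39, and their part in the differences of the 10 genes was not tested.

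Array-to-array differences within the basal groups were larger than those between genotypes for several genes. Ccn1 ranged from 11.84 to 12.82 in control and from 11.99 to 12.89 in SSKO arrays, and the low value fell on array 1 in each. Those 2 arrays had endothelial sums of 13810 and 27472, and SSKO array 3, with a sum of 15368, had a Ccn1 level of 12.71. The part of the endothelial signal in the Ccn1 levels was not tested. With the endothelial level as a covariate the SSKO difference of Ccn1 was 0.31 (SE 0.19, limma adjusted p = 0.999). Without the 3 endothelial-bright arrays it was 0.17 (SE 0.23), where 1 SSKO array remains and its spread is taken from the other groups. For Tead4, control array 4 and SSKO array 3 were high, and leaving out the first of them gave an SSKO difference of 0.42, the second one of -0.11, with no call in either fit.

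The paralog pairs gave no detected shift between SSKO and control basal arrays. Over the 6 pairs the shifts ran from -0.15 (Ccn2 minus Ccn1) to 0.19 (Tead2 minus Tead1), with exact permutation p from 0.343 to 0.857 and adjusted p from 0.637 to 0.857. Among the 54 other Hippo genes limma called 0, with a median of -0.01, and Fat4 (unadjusted p = 0.0408) and Vgll1 (0.0313) were those under 0.05 before adjustment. The genes of smallest p in their lists were the atypical cadherin Fat4 (-0.47, SE 0.20), the TEAD co-factor Vgll1 (0.29, SE 0.12), Rassf6 (0.24, SE 0.14), Stk38 (-0.14, SE 0.14), Ccn5 (0.30, SE 0.23) and the target Ccdc80 (-0.57, SE 0.46), each with a limma adjusted p of 0.9998. Ccdc80 was highest in control array 3, the array brightest for fibroblast markers. Its difference was -0.06 without that array and -0.29 without SSKO array 2, and the part of the fibroblast signal was not tested.

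**Figure D3:**
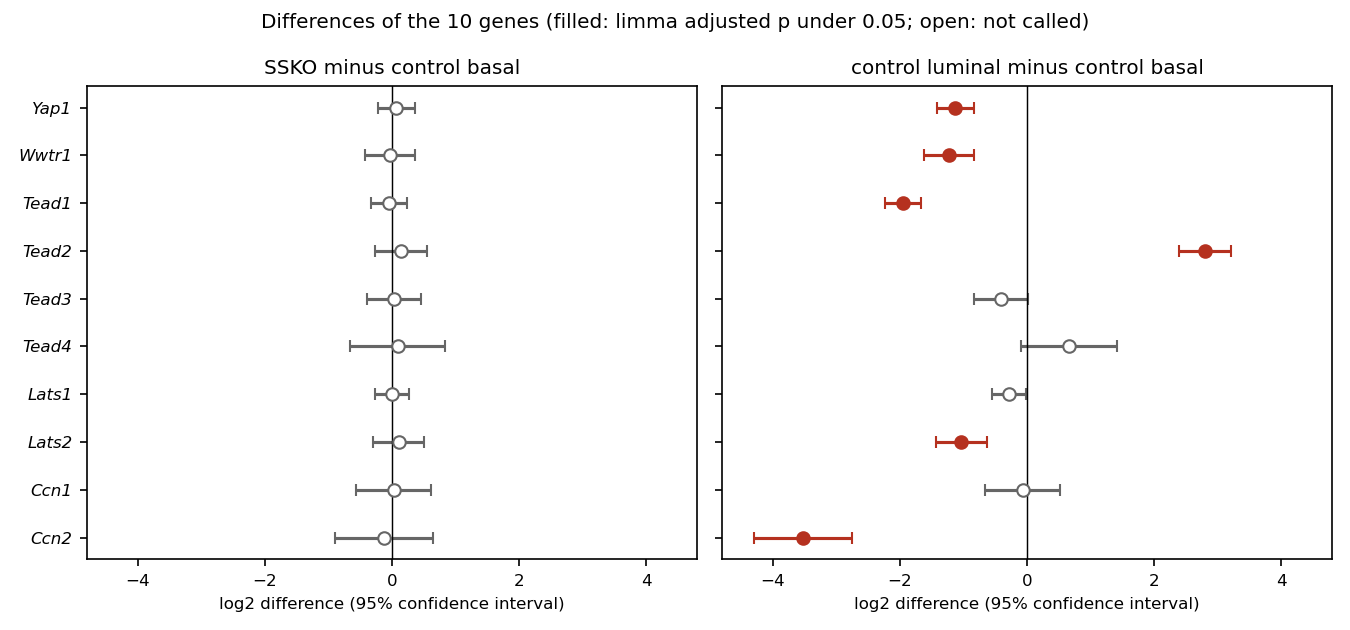
Log2 differences of the 10 genes with 95% confidence intervals from the limma fit, for SSKO minus control basal (left) and control luminal minus control basal (right); filled points were called at an adjusted p under 0.05. All 10 intervals include 0 on the left, and on the right Ccn2 lies at -3.53 and Tead2 at 2.80.

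SSKO basal cells were also set against control luminal cells, a comparison that shares its luminal arrays with the one above and has no SSKO luminal counterpart. The same 6 genes were called, Yap1 (1.20), Wwtr1 (1.20), Tead1 (1.91), Lats2 (1.14) and Ccn2 (3.41) higher and Tead2 (-2.67) lower in SSKO basal cells, and the same 6 did not overlap. Over all genes tested 42.3% were called (19% higher and 23.3% lower), 54.4% did not overlap and 48.7% had an unadjusted p under 0.05. With the luminal arrays shared, these values are given side by side with those above and not as a second result. Tead3 (0.45, limma adjusted p = 0.110), Tead4 (-0.57, 0.254), Lats1 (0.28, 0.105) and Ccn1 (0.09, 0.836) were not called. Tead3 was called with the endothelial covariate (0.75, limma adjusted p = 0.0201), with array weights (0.54, 0.0169) and without control basal array 1 (0.45, 0.0450), which enters through the shared spread, and its adjusted p over all alternatives ran from 0.0169 to 0.307. Lats1 was called with array weights (0.34, limma adjusted p = 0.0190), with a range of 0.0190 to 0.288, and Tead4 with the replicate block (-0.57, 0.0222), with a range of 0.0222 to 0.606.

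**Figure D4:**
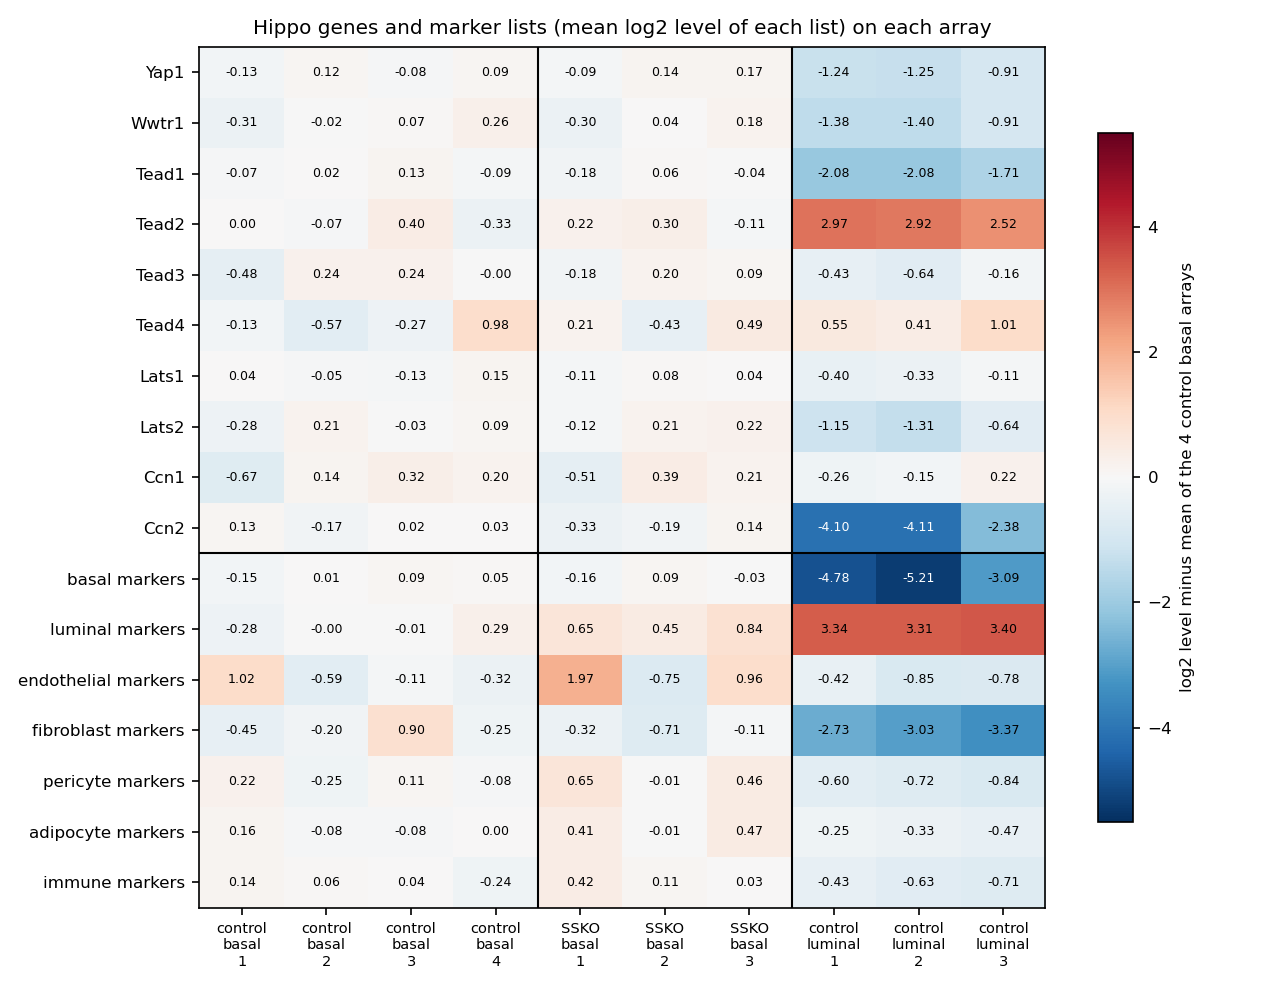
Level of each of the 10 genes, and mean log2 level of each marker list, on every array, as the difference from the mean of the 4 control basal arrays; blue is lower and red is higher. Ccn2 and the basal markers are less low in luminal array 3 than in luminal arrays 1 and 2, and the endothelial row is high in control basal array 1 and in SSKO basal arrays 1 and 3.

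The genes whose pattern was most like that of a member were found by Pearson correlation of log2 levels over the 10 arrays, which mostly carries the luminal against basal difference and is given as a description. For Ccn2 they were Epb41l2 (r = 0.997), Gprc5b (0.996) and Itsn1 (0.996), for Yap1 Tns1 (0.996), Tnfrsf11a (0.994) and Morc4 (0.994), and for Wwtr1 Mbnl1 (0.995), Nfat5 (0.994) and Zcchc2 (0.993). For Ccn1, which did not separate the compartments, they were Ddr1 (0.953), Pax3 (0.936) and Car15 (0.928), with luminal differences of 0.02, 0.03 and 0.05.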

How the data were processed

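Total RNA of each sample was measured on 1 Affymetrix array. The deposited table holds 1 linear intensity per probe set and array, for 28815 probe sets. Per the submitters' processing notes, Affymetrix Expression Console 1.1 and PLIER 2.0 were used by the authors; the step each served, and any normalization between arrays, are not stated. Intensities were taken as log2(intensity + 16), the dimmest 25% of probe sets were dropped (mean under 6.74), and each gene was read from its brightest single-symbol probe set. Of 21780 single symbols, 21689 matched the current gene table; 1605 probe sets had several symbols and 5430 none. With limma 3.58.1 in R 4.3.3, the means of the 3 groups were estimated jointly from the 10 arrays, leaving 7 residual degrees of freedom, with two-sided tests, Benjamini-Hochberg adjustment over 15815 genes and a threshold of 0.05. Paralog pairs were tested by exact permutation over arrays. The number of arrays limits the precision. The members and gene lists were chosen with earlier results of these data known. Other genes named were, per list and comparison, up to 3 called genes that rose most and 3 that fell most, or else the gene of smallest p; exceptions are stated or serve as values of genes not called. The fits were tested on simulated data. Alternatives varied the pseudocount, filter, normalization, probe sets, samples, variance model, endothelial signal and replicate block. Figures used matplotlib 3.10.9 in Python 3.11.15.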

Additional observations from a re-analysis of the deposited data

How the results depend on the processing

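Under 23 alternatives, 10 of which left out 1 array each, the count of the 10 genes called stayed at 6 to 8 in control luminal minus control basal, at 6 to 8 in SSKO basal minus control luminal and at 0 in SSKO minus control basal. Yap1, Wwtr1, Tead1, Tead2, Lats2 and Ccn2 were called with the same sign in all 23 for both comparisons with luminal cells, with Ccn2 between -4.10 and -3.24 and Tead2 between 2.69 and 2.94 in luminal minus control basal. Paralog pairs past adjustment numbered 0, which says nothing about stability: with all arrays the 5 pairs at the smallest possible p of 0.0286 reach 0.0686 after adjustment, and fewer arrays raise that p.

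Sign changes concerned uncalled values that lay near 0 in the main fit. Not all of them stayed near 0, and the SSKO difference of Tead4 ran from -0.4753 to 0.4171 over all alternatives. In SSKO minus control basal, Ccn1 turned to -0.0227 after quantile normalization and to -0.0164 after centring of the arrays, and Tead3 to -0.0095 after centring. With the replicate block, Lats1 turned to 0.0486 and Wwtr1 to 0.058, and in luminal minus control basal Ccn1 turned to 0.0037. With the endothelial covariate Lats1 turned to 0.0335, Tead1 to 0.0077, Wwtr1 to 0.0836 and Tead4 to -0.0319, and with array weights Tead4 turned to -0.0471. Without the 3 endothelial-bright arrays Lats1 turned to 0.0891, Tead1 to 0.041, Tead4 to -0.4753, Tead3 minus Tead1 to -0.0018 and Tead4 minus Tead1 to -0.5163. With 1 array left out, SSKO differences ranged from -0.1923 to 0.2988 for Ccn1, -0.043 to 0.0561 for Lats1, -0.1079 to 0.012 for Tead1, -0.1246 to 0.1441 for Tead3, -0.1105 to 0.4171 for Tead4 and -0.1322 to 0.1085 for Wwtr1. In the same fits Ccn2 minus Ccn1 ranged from -0.3214 to 0.1108, Tead3 minus Tead1 from -0.0511 to 0.1611 and Tead4 minus Tead1 from -0.0565 to 0.4964, and Ccn1 ranged from -0.2861 to 0.0425 in luminal minus control basal and from -0.0851 to 0.3628 in SSKO basal minus luminal. The cause was not tested.

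Replicate numbers are shared between groups, but the labels do not say that they mark a shared litter or day, and same-numbered arrays deviated together (r over 0.1) in 3 of 9 pairs, so pairing was not assumed. Between control and SSKO basal arrays 1 to 3 the same-numbered r was 0.63, 0.46 and 0.05. Control array 3 had its highest r (0.17) with SSKO array 2, and the remaining different-numbered pairs had r from -0.44 to -0.20. With the block, 0 of the 10 genes were called in SSKO minus control basal. The Tead4 difference there was 0.42 (SE 0.16, limma adjusted p = 0.9997) with the block and 0.09 (SE 0.34) without it. With the replicate block 7 genes were called in luminal minus control basal, the added one being Tead4 (0.98, limma adjusted p = 0.00146), and 7 in SSKO basal minus luminal, again with Tead4 (-0.57, 0.0222); control basal array 4 is alone in its block. No detection calls or background estimates were used here, so a low signal sets no bound on the RNA of Tead4 or of the dim luminal values.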
